A study of Rattus norvegicus with 25 samples.

Results

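The comparison described here is that of wheat aleurone against none in rats fed linseed oil, read within arrays. It rests on 13 of the 25 samples of the series: 6 faecal samples of the group LO (linseed oil) and 7 of the group A+LO (linseed oil with aleurone). They were chosen by diet group and dye. On 6 arrays an LO sample carried the dye Cy3 and an A+LO sample the dye Cy5, and each of these pairs gave a difference on the same array. Sample A+LO 11 lay alone on its array, so it entered no within-array difference. The other 12 samples lay on 6 arrays that pair PO (a control oil of equal energy) with A+PO (the same oil with aleurone). They served to show where the linseed arrays differed. They also entered the choice of probes and the estimate of spread in the limma tests. All animals were Wistar rats given their diet for 12 weeks, and neither ages nor shared cages or litters are known from the labels. The question, from the study's title, was how aleurone and plant omega-3 fatty acids interact in the gut microbiota.

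Aleurone is the cell layer of the bran that borders the starchy part of the cereal grain, and its cell walls are rich in fibre that mammalian enzymes do not digest. Gut bacteria ferment such fibre to short-chain fatty acids, and the supply of fibre is known to shift which of them are abundant. Linseed oil is rich in alpha-linolenic acid, a plant omega-3 fatty acid that can reach the colon where it is not absorbed. The HuGChip used here is a microarray designed for human gut bacteria, whose probes are complementary to stretches of the bacterial 16S rRNA gene. A probe's intensity rises with the amount of matching amplified gene hybridised, so it follows the makeup of a community and not the number of bacteria.

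Each array held 4441 probes of 25 bases in 3 spots. Each probe name opens with a number, of which there are 66; probes sharing it are called a set, and those sharing the second number too are called a target. The files pair no set with a bacterial taxon, so sets are given by number, as b6955. Values are log2 intensities after background correction, minus the 75th percentile of the same channel, taken over the 405 probes that every one of the 25 samples showed above background. Tests used the 1153 probes above background in at least 6 of the 25 samples, called kept probes, and the 53 sets with at least 3 of them. Every A+LO sample carried Cy5 and every LO sample Cy3. An effect of aleurone and an effect of dye cannot be told apart in any difference below.

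The array of LO 4 stood apart from the other linseed arrays. The 3 spots of a probe differed there with a typical SD of 1.21 (LO) and 1.13 (A+LO) on the log2 scale, against 0.067 to 0.502 in the other samples of the 6 arrays. LO 4 and its partner also had the fewest probes above background, 679 and 576. The median difference of A+LO minus LO over kept probes was 4.18 on that array and ran from -1.01 to 0.21 on the other 5. Results are therefore given with and without it, apart from values printed array by array. Bray-Curtis dissimilarity was taken on scaled linear intensities, and runs from 0, where these are equal, to at most 1. It was not taken on shares, so a difference in summed signal also raises it. LO 6, LO 8 and LO 9 were very alike, with dissimilarities of 0.111 to 0.125. Their probes differed by typically 0.205 to 0.243 on the log2 scale, against 0.702 to 5.16 for other pairs of LO samples and 0.065 to 0.076 from the scatter of spots. That scatter leaves out labelling and hybridisation, so it cannot show whether they are separate samples, and they were counted as separate because the labels list them so.

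Fewer bacterial probes were above background with aleurone than without it on each of the 6 linseed arrays. The LO samples showed 1044, 679, 1000, 1014, 981 and 971 such probes (LO 3, 4, 6, 8, 9 and 11). Their A+LO partners showed 920, 576, 905, 914, 930 and 823 in the same order. The group ranges overlap, from 679 to 1044 and from 576 to 930, but within arrays the direction was shared by all pairs. Numbers fell by 103.5 ± 32.4 (SD of the paired differences, n = 6; exact sign-flip test, two-sided p = 0.0312, the smallest that 6 arrays can give). Leaving out the array of LO 4 gave a mean of -103.6, with an exact p of 0.0625, the smallest that 5 arrays allow. A+LO 11, outside the pairs, had 782 probes above background. The median raw intensity of a sample was 86.4 to 181 in LO and 60.3 to 69.3 in the partners, and its part in the number of detected probes was not tested.

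**Figure D1:**
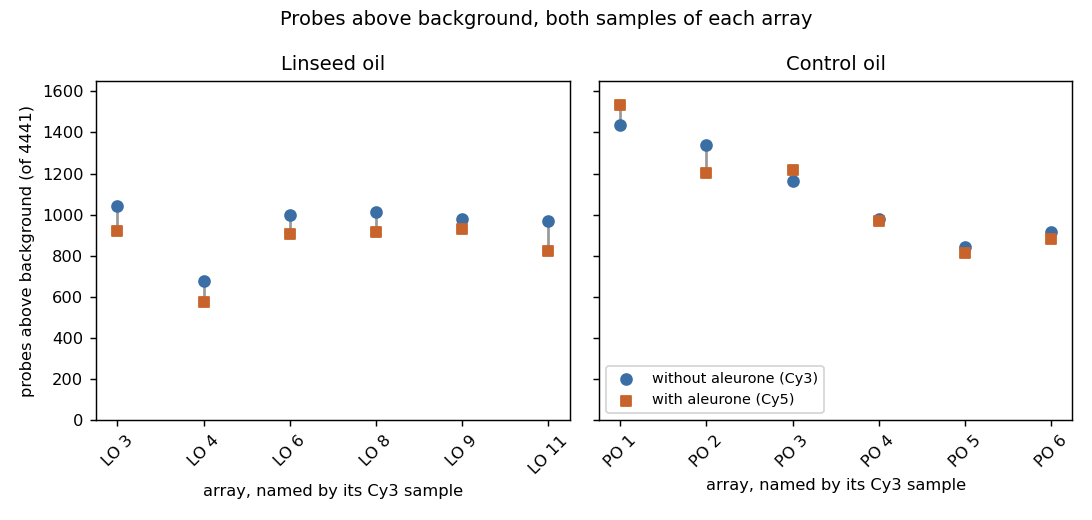
Number of probes above background, of 4441, in both samples of each array, with Cy3 samples as circles and Cy5 samples as squares; grey lines join samples of an array. On the linseed arrays every square lies below its circle, by 51 to 148 probes, while on the control-oil arrays squares lie on either side.

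The change in detection was more loss than gain. Per array, 98 to 194 probes (median 161.5) were above background in LO and not in A+LO, while 33 to 71 (median 46.5) showed the reverse. On the control-oil arrays losses ran from 34 to 197 and gains from 56 to 145. With linseed oil 26 probes were lost on at least 4 of the 6 arrays, and they belonged to 20 sets with at most 2 in any set. Of these 26, 17 were lost on at most 1 control-oil array. Of all 4441 probes, 89 were lost on at least 2 control-oil arrays. Loss on at most 1 was thus the rule among probes in general, of which 3021 were above background in no sample of the 6 linseed arrays. It does not mark the 26 as specific to linseed oil. Of the 3 probes lost on at least 4 control-oil arrays, 2 were among the 26. Probes b6943_4_8 and b6950_2_3, named after their values were seen, were above background in 6 of 6 LO samples and in 0 of 6 A+LO samples. With the control oil they were so in 3 and 1 of 6 PO samples and in 0 of 6 A+PO samples. Their scaled log2 levels on the linseed arrays did not fall with detection: the mean differences were 0.95 and 0.83, or 0.29 and 0.17 without the array of LO 4. All 26 had a mean log2 difference above 0 on the main scale, and 15 of them without the array of LO 4. The scaled level is relative to the channel's percentile, which was lower in A+LO than in LO on each linseed array. A scaled level can thus rise where the intensity does not, and intensities without scaling were not compared for these probes. Only 2 probes were gained on at least 4 linseed arrays. Over the 5 arrays other than that of LO 4, 22 probes were lost and 1 gained on at least 4.

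The loss of detected probes was larger with linseed oil than with the control oil. With the control oil the within-array differences were 100, -135, 56, -9, -28 and -38 (PO 1 to PO 6), a mean of -9 ± 81.5 (SD, n = 6; exact sign-flip p = 0.781). The linseed mean was lower by a further 94.5 probes (difference of differences -94.5; exact permutation of the oil over all splits of 12 arrays, two-sided p = 0.026). Without the array of LO 4 it was -94.6 (exact permutation p = 0.039), and without that of LO 11 -85.6 (exact permutation p = 0.0563). Linseed and control-oil arrays lay on separate slides, and effects of oil and of slide cannot be told apart. The size depended on how detection was called: with a limit of 3 SD above the negative control spots the difference between oils was -28.3 (exact permutation p = 0.448). That limit called no difference on the array of LO 3, and the linseed mean was -104 (exact sign-flip p = 0.0625). With all 3 spots of a probe required to be well above background, the linseed mean was -163 (exact sign-flip p = 0.0312). The difference between oils was then -108 (exact permutation p = 0.00433).

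Bacterial signal was also concentrated in fewer probes with aleurone. The Shannon index over kept probes, which is higher where signal is spread more evenly over more probes, was 5.99, 5.23, 6.01, 6.08, 6.12 and 5.96 in LO 3, 4, 6, 8, 9 and 11. In the A+LO samples of the same arrays it was 5.25, 4.12, 5.75, 5.78, 5.77 and 5.25. It was lower in A+LO on 6 of 6 arrays, with a mean difference of -0.578 ± 0.333 (SD, n = 6; exact sign-flip p = 0.0312). The 5 arrays other than that of LO 4 gave a mean of -0.472 (exact p = 0.0625). Under quantile normalisation over all samples, which gives all channels the same distribution, the mean difference was -0.00574 (exact sign-flip p = 0.0312). The 50 brightest kept probes held 14.7% to 40.4% of the summed signal in LO samples and 21.8% to 93.4% in their partners, the highest of each being on the array of LO 4.

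The index was also lower with aleurone on the control oil, with a mean difference of -0.277 ± 0.0701 (SD, n = 6; exact sign-flip p = 0.0312, lower on 6 of 6 arrays). The linseed difference exceeded it by -0.301, which did not pass the test (exact permutation over 12 arrays, p = 0.0519; without the array of LO 4, -0.195 and p = 0.0714). Probes within 1 log2 unit of the channel's brightest, a sign that intensities crowd near an upper limit, numbered 115 to 333 in LO and 42 to 233 in their A+LO partners. Its part in the Shannon index was not tested.

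Set b6955 took a larger share of the signal with aleurone on every linseed array, and b6995, b6957 and b6998 a smaller share. These belong to the 6 sets with most kept probes, for which the share of the summed linear signal over kept probes was taken. A share does not depend on the factor by which a channel is scaled, so settings that change only this factor are no test of it. It does depend on normalisations that change the form of the signal. With quantile normalisation over all samples the mean difference was 4.69 points for b6955 and -0.717 for b6998 (exact sign-flip p = 0.0312 for both), -0.193 for b6957 (exact p = 0.0938) and 0.35, the opposite direction, for b6995 (exact p = 0.688). It is a share of hybridisation signal, not of bacterial cells.

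b6955, with 110 kept probes, held 16.5%, 21.9%, 21.5%, 19.7%, 20.9% and 18.9% of the signal in LO 3, 4, 6, 8, 9 and 11. In their partners it held 27.9%, 41.6%, 26.4%, 23.8%, 26.7% and 32.8%, and in A+LO 11 28.3%. The groups do not overlap. The mean rose from 19.9% ± 2.01 to 29.9% ± 6.48 (SD, n = 6), a difference of 9.97 percentage points within arrays, or 8.01 without the array of LO 4. The exact sign-flip p was 0.0312 (0.0468 after Benjamini-Hochberg adjustment over the 6 sets). With the control oil b6955 rose from 19.8% to 23%, also on 6 of 6 arrays. The linseed rise was larger by 6.78 points (exact permutation over 12 arrays p = 0.0108, 0.0648 after adjustment over the 6 sets), so the difference between oils did not pass after adjustment.

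The targets of b6955 did not move together. b6955_1 (44 kept probes) went from 10.2% to 14.8% of the signal, b6955_3 (32 probes) from 5.97% to 10.3%, and b6955_4 (5 probes) from 1.79% to 4.33%, each higher on 6 of 6 linseed arrays. b6955_5 (26 probes) went from 1.93% to 0.478% and was lower on 6 of 6. All 4 had the same direction on 6 of 6 control-oil arrays, with smaller mean differences of 2.01, 1.57, 0.723 and -1.12 points against 4.56, 4.32, 2.54 and -1.45. Without the array of LO 4 the linseed differences were 3.56, 4, 2.14 and -1.69 points, each in its direction on 5 of 5 arrays. The differences between oils were not tested for single targets.

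b6995, with 103 kept probes, held 9.25%, 1.29%, 1.16%, 1.77%, 2.61% and 5.19% of the signal in the LO samples in the same order. In the A+LO partners it held 2.82%, 0.631%, 0.81%, 0.783%, 1.16% and 1.2%, and in A+LO 11 0.454%. The groups overlap, since LO samples differ widely, but all 6 pairs went down, by a mean of -2.31 points (-2.64 without the array of LO 4 and -1.49 without that of LO 3; exact sign-flip p = 0.0312, 0.0468 after adjustment over the 6 sets). With the control oil it went from 1.9% to 0.756%, lower on 6 of 6 arrays. The decrease was shared by most of its probes. On each linseed array 87.4% to 98.1% of the b6995 probes lay below that array's median difference, and the median b6995 probe lay 0.76 to 2.32 log2 units below it. On the control-oil arrays 88.3% to 98.1% lay below the median. A place below the median is relative: on the array of LO 4 the set's mean log2 difference was 2.15.

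b6957 (43 kept probes) fell from 1.27% ± 0.614 to 0.586% ± 0.564 (SD, n = 6), with 6 of 6 arrays lower. b6998 (40 kept probes) fell from 4.41% ± 1.07 to 2.38% ± 1.58 (SD, n = 6), also lower on 6 of 6. Both had an exact sign-flip p of 0.0312 and 0.0468 after adjustment over the 6 sets. Their mean differences without the array of LO 4 were -0.668 and -1.91 points. The largest set, b6959 with 193 kept probes, held 30.1% of the signal in LO and 29.9% in A+LO and was higher on 4 of 6 arrays. b6983 (55 kept probes) held 3.6% and 3.5% and was higher on 3 of 6. Neither passed (exact sign-flip p = 0.969 and 0.844). Their mean differences were -0.203 and -0.1 points with the array of LO 4 and turned to 1.99 and 0.197 without it.

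**Figure D2:**
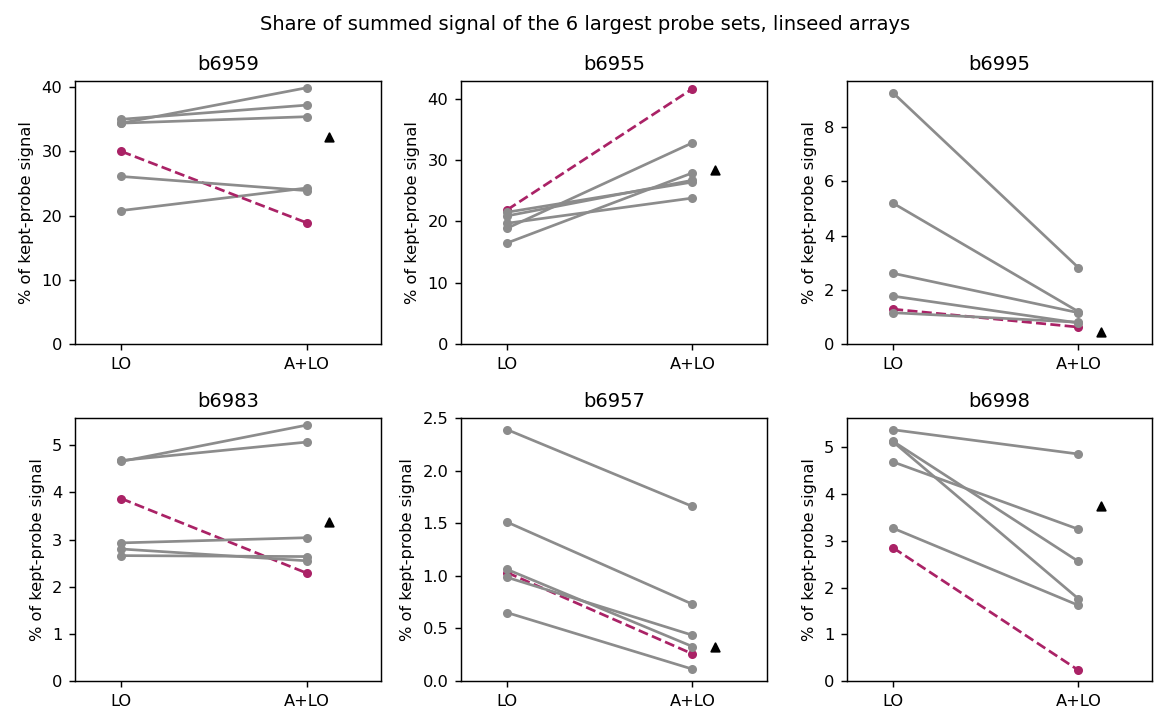
Share of the summed signal of kept probes, in percent, of the 6 sets with most kept probes; lines join the LO and A+LO samples of an array, the dashed line is the array of LO 4 and the triangle is A+LO 11. b6955 rises on 6 of 6 arrays, b6995, b6957 and b6998 fall on 6 of 6, and b6959 and b6983 go both ways. Each panel has its own scale.

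Across all 53 sets the share went up on 6 of 6 linseed arrays for 3 sets and down on 6 of 6 for 20. Over the 5 arrays other than that of LO 4, 3 sets went up and 25 down on 5 of 5. All 3 and 17 of the 20 went the same way on 6 of 6 control-oil arrays. Beside b6955, the sets that rose on all linseed arrays were b6985 (6 kept probes, 1.35% to 2.92%) and b6949 (9 kept probes, 0.781% to 1.67%, named after its values were seen). Shares of a whole are bound together, so a rise of b6955 by itself lowers the shares of the others.

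Probe by probe, 11 of the 1153 kept probes (0.954%) differed between A+LO and LO, and all 11 were lower in A+LO (limma on within-array differences, adjusted p under 0.05). The median difference over all kept probes was -0.22. At an unadjusted p under 0.05, 110 probes were higher and 186 lower. Without the array of LO 4, 471 probes (40.8%) passed, 18 higher and 453 lower, and the median was -0.72. All 11 were among those past the test. No probe passed without the array of LO 6 or that of LO 8 (187 and 222 at an unadjusted p under 0.05), and without that of LO 9 or LO 11 3 passed, so the count of 11 is sensitive to each of these. The limma fit took its spread from linseed and control-oil arrays together. With the spread of the 6 linseed arrays alone, 1 probe passed.

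The 11 probes came from 7 sets and 9 targets. Of the 11, 9 were lower on 6 of 6 arrays and 2 on 5, and 9 were above background in all LO samples. Probe b6973_5_4 had the smallest p. Its scaled log2 levels were -0.22, -2.99, -1.61, -1.04, -3.69 and -1.25 in LO 3, 4, 6, 8, 9 and 11, and -1.81, -5.41, -5.69, -5.46, -6.93 and -4.8 in their partners. The groups overlap, but the partner was lower on every array, with differences from -4.42 to -1.59. The log2 difference was -3.22 (SE 0.559, limma adjusted p = 0.00475), or -3.38 without the array of LO 4, and -1.08 under quantile normalisation over all samples (limma adjusted p = 0.123). In a fit of the 6 linseed arrays alone the limma adjusted p was 0.145.

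Probe b6984_5_2 stood at -1.93, 0.54, -1.93, -1.54, -0.4 and 0.03 in the LO samples and at -6.25, -5.81, -4.34, -4.31, -2.53 and -0.69 in their partners. It too was lower on 6 of 6 arrays, with the smallest gap on the array of LO 11 and the widest on that of LO 4. The log2 difference was -3.12 (SE 0.628, limma adjusted p = 0.0132), or -2.47 without the array of LO 4, and -1.35 under quantile normalisation over all samples (limma adjusted p = 0.266). In a fit of the 6 linseed arrays alone the limma adjusted p was 0.151.

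The same probes were mostly lower with aleurone on the control oil. Of the 11, 10 were lower and past the test there (A+PO minus PO), where 802 of 1153 probes (69.6%) were lower and none higher. b6973_5_4 differed by -2.51 and b6984_5_2 by -2.03 with the control oil. None of the 11 differed between the oils (smallest limma adjusted p 0.167). The single one past the test with linseed oil alone lay at -1.55 with the control oil (limma adjusted p = 0.0952), and its difference between oils was -2.16.

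**Figure D3:**
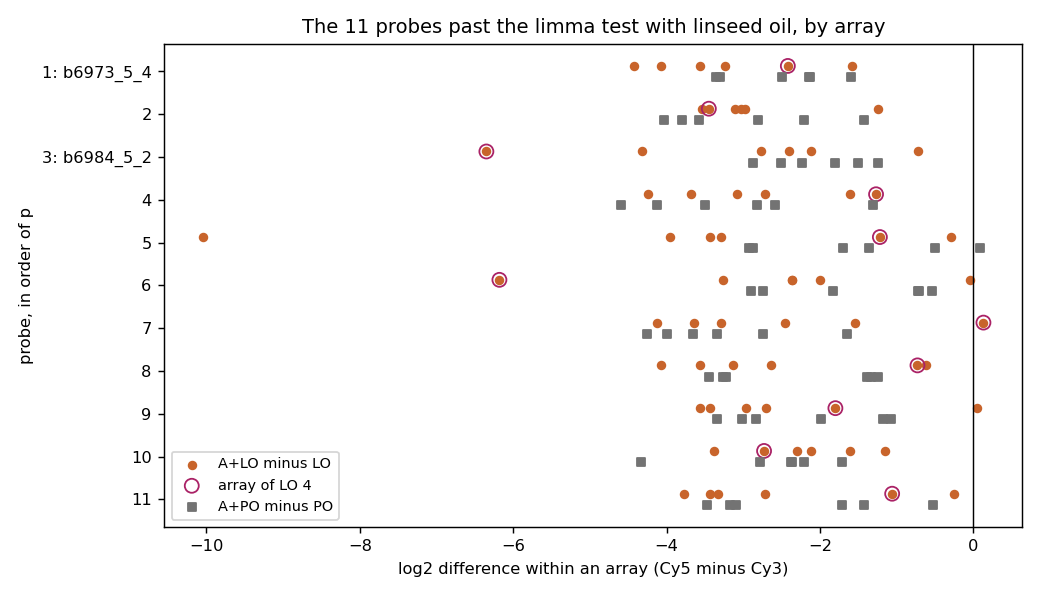
Log2 difference within each array (Cy5 minus Cy3) for the 11 probes past the limma test with linseed oil, in order of p; circles are the 6 linseed arrays, squares the 6 control-oil arrays, and rings mark the array of LO 4. Nearly all points lie below 0 for both oils, and for 9 of the 11 probes all 6 linseed points do.

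No probe was higher in A+LO and past the test. The smallest p among the higher ones belonged to b6955_4_1 and b6955_4_5, which lie in the same target of b6955 and differ by 1 of 25 bases, so they are no independent readings. b6955_4_1 stood at 0, 0.43, -0.1, -0.14, -0.13 and -0.08 in LO 3, 4, 6, 8, 9 and 11. It stood at 3.15, 6.29, 0.78, 0.38, 0.35 and 1.96 in the partners and at 0.69 in A+LO 11. All 6 pairs were higher in A+LO on this scale, with a log2 difference of 2.15 (SE 0.632, limma adjusted p = 0.0912). Leaving LO 4 and its partner out, the difference was 1.41 (limma adjusted p = 0.00778). With the control oil it was 0.27. Against the median difference of its array, b6955_4_1 lay higher on all arrays of both oils. It did so by 1.46 to 3.03 on the linseed arrays and by a similar 1.44 to 2.79 on the control-oil arrays. The subtracted percentile was lower in the partner on each linseed array. It was 19.12 and 18.94 on the array of LO 9, and 18.57 and 13.22 on that of LO 4. Its part in the scaled differences was not tested.

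None of the 53 sets passed the test of their mean log2 difference (0%; limma, smallest adjusted p 0.664; 3 at an unadjusted p under 0.05). The fit gave all sets the same SE of 0.563, so spread was pooled over sets, which share the shifts of an array. Its p-values for sets, here and in the interaction, do not measure the spread of each set between rats. The lowest set was b6995 at -1.29, with differences of -0.52, 2.15, -2.15, -2.91, -2.29 and -1.99 on the arrays of LO 3, 4, 6, 8, 9 and 11. Only the array of LO 4 was positive. Without that array 25 sets (47.2%) passed, all lower in A+LO, with b6995 at -1.97 (limma adjusted p = 9.12e-09) and b6962 at -1.63 (limma adjusted p = 2.92e-06). With all 6 arrays b6962 had -0.96. The highest sets were b6985 at 1.18 and b6948 at 1.14, neither past the test with or without that array (limma adjusted p 0.664 for both with it, and 0.135 and 0.251 without).

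b6955 had a mean log2 difference of 0 over its probes although its share of the signal rose. The mean weighs dim and bright probes alike, while the share follows the bright ones. b6985 lay above its array's median difference on 6 of 6 linseed arrays, by 0.97 to 2.52 for the median of its probes. The same held on 6 of 6 control-oil arrays, by 1.22 to 2.63.

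The direction and number of probes past the test depended on how channels were put on a common scale. With the deposited processed signal 12 probes were higher and 364 lower, with loess and Aquantile 39 and 192, and with the 75th percentile of all probes 0 and 659. Subtracting the median of all probes gave 0 and 712. Subtracting that of the kept probes turned the balance, to 481 and 5. Quantile normalisation gave 2 and 5 over all samples and 14 and 888 within each dye. The 11 probes were lower in all 7 of these settings and past the test in 5 or 6 of them. With each array's median difference set to 0, a setting added after the data were seen, 224 probes were higher and 311 lower, the 11 among the lower. These are 19.4% and 27% of the kept probes. In b6995 90 of 103 kept probes (87.4%) were among the lower, and 100 of the 103 share a target. In b6955 20% were higher and 22.7% lower, near the shares over all kept probes.

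**Figure D4:**
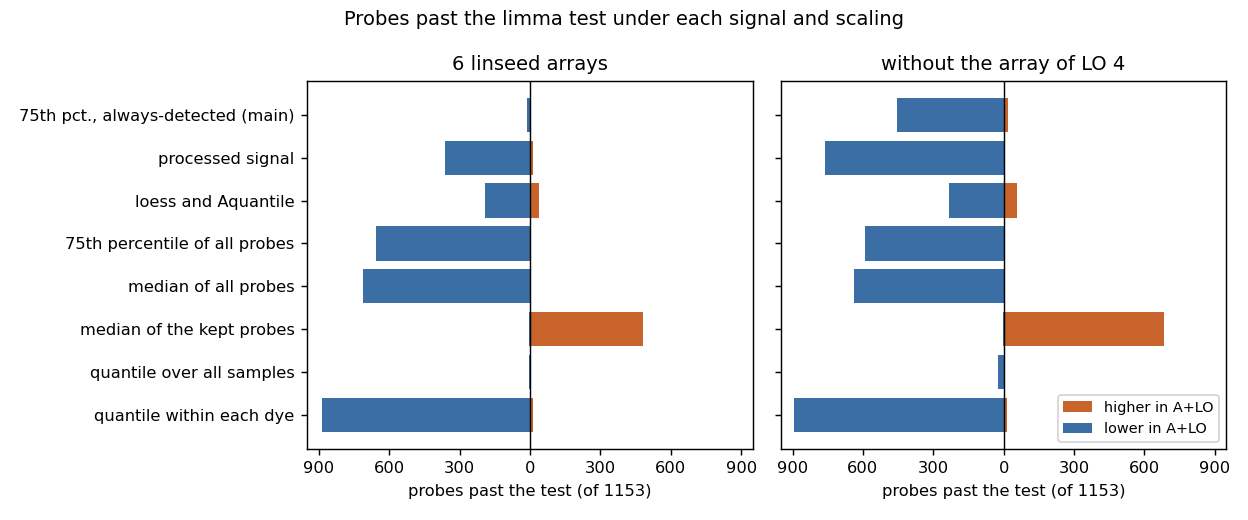
Number of kept probes, of 1153, past the limma test as higher (right, orange) or lower (left, blue) in A+LO under the main scaling and 7 other signals or scalings, over all 6 linseed arrays and without the array of LO 4. Lower probes outnumber higher ones except with the median of the kept probes, which gave 481 higher on 6 arrays and 683 on 5.

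Correlations were higher between the samples of an array than between arrays. The correlation over kept probes was 0.917 on average between LO and A+LO on the same array and 0.649 between LO and A+LO on other arrays, and in 6 of 6 cases the partner on the same array had the highest correlation (0.937 and 0.699 without the array of LO 4, 5 of 5). By Bray-Curtis dissimilarity the own partner was the nearest A+LO sample of the 6 for 4 of 6 LO samples, the exceptions being LO 4 and LO 11. Partners lay 0.164 to 0.503 apart on the other arrays and 0.912 on that of LO 4, whose samples correlated at 0.816. These are values across probes of samples that share an array, a hybridisation and a scan. The contrast of A+LO with LO, aleurone and dye together, accounted for 11.4% of the variation in Bray-Curtis dissimilarity (pseudo-F 1.28, exact exchange of samples within arrays p = 0.0312, the smallest possible). Leaving out the array of LO 4, the pseudo-F was 1.31 and the percentage 14.0% (exact p = 0.0625, the smallest possible). Under the other scalings of all 6 arrays the pseudo-F ran from 0.738 to 2.79.

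A+LO samples were less alike among themselves than LO samples were on the main scale. The mean pairwise dissimilarity was 0.402 among the 6 LO samples and 0.639 among their partners (difference 0.237, exact exchange within arrays p = 0.0312). Without the array of LO 4 it was 0.325 and 0.505 (difference 0.18, exact p = 0.0625). The partner of LO 4 lay 0.862 to 0.953 from each other linseed sample, LO 4 included. The partners of LO 6, LO 8 and LO 9 lay 0.144 to 0.151 from each other. This result depended on the scale: under quantile normalisation over all samples the difference was -0.0588 (exact p = 0.0938), and with the 75th percentile or the median of all probes it was -0.00186 and -0.0125.

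**Figure D5:**
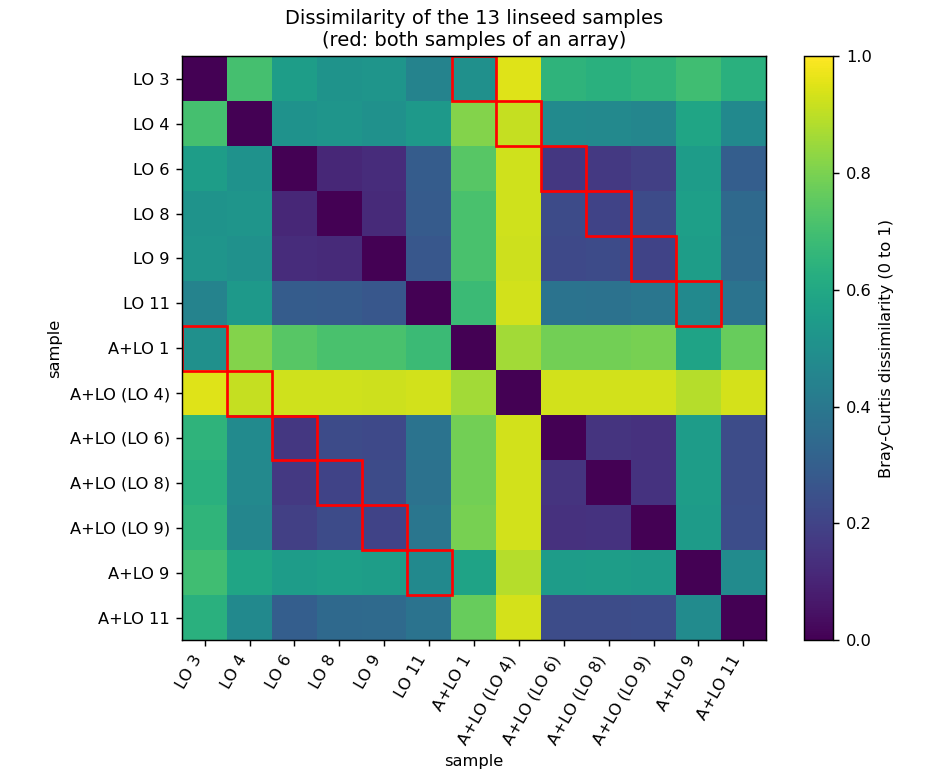
Bray-Curtis dissimilarity over kept probes, from 0 (dark) to 1 (bright), between all 13 linseed samples, with red frames around both samples of an array; A+LO samples on the arrays of LO 4, 6, 8 and 9 are named by their LO partner. LO 6, LO 8 and LO 9 and their partners form a dark block, and the partner of LO 4 is far from every other sample.

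On the main scale the aleurone difference was less negative with linseed oil than with the control oil, where the median kept probe stood at -1.98 and 48 of 53 sets (90.6%) were lower. The interaction, which is the linseed difference less the control-oil difference, was positive and past the test for 355 of 1153 probes (30.8%) and 38 of 53 sets (71.7%), and negative for none (limma, adjusted p under 0.05). Its median over probes was 1.56. Without the array of LO 4, 360 probes (31.2%) and 38 sets passed and the median was 0.84. The probes concerned were dim: 5 of the 355 were among the 434 above background in all 12 samples of the 6 linseed arrays, and 221 were above background in fewer than 6 of these samples. The percentile subtracted from each channel moved in opposite directions with the oils. It was 18.33 to 19.27 (log2) in LO and 13.22 to 18.94 in their partners, lower in the partner on each array. With the control oil it was 17.37 to 18.39 in PO and 18.52 to 19.54 in A+PO, higher with aleurone on each array. A shift of this kind enters the interaction of every probe alike, and its part in these results was not tested.

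The interaction was not stable to scaling. No probe passed in limma with the processed signal, loess and Aquantile, the median of the kept probes or either quantile normalisation (88, 93, 212, 62 and 66 at an unadjusted p under 0.05). With the 75th percentile of all probes 1 probe was positive and 489 negative, and with the median of all probes 276 were negative and none positive. Probes b7008_5_12 and b7008_5_11, which share a target and differ by 5 of 25 bases, had the largest interactions among probes above background in every LO or every A+LO sample, 3.89 and 3.84 (SE 0.983 and 0.972, limma adjusted p = 0.0163 for both). b7008_5_12 differed by 0.13 with linseed oil and by -3.76 with the control oil. On the linseed arrays its differences were 0.65, 4.03, -0.96, -1.7, -0.94 and -0.27 (LO 3, 4, 6, 8, 9 and 11), and on the control-oil arrays they ran from -5.9 to -1.6. Only the arrays of LO 3 and LO 4 were above 0.

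Sets b6948 and b6945 led the interaction among sets, at 3.34 and 3.12 (SE 0.796 for every set, limma adjusted p = 0.00171 and 0.00193). They have 6 and 3 kept probes, of which 47.2% and 38.9% were above background per LO sample on average and 13.9% and 11.1% per A+LO sample. Their values thus came mostly from signals near background. No set had a negative interaction with p under 0.05, and among probes above background in every LO or every A+LO sample, the negative ones with the smallest p, b6959_3_15 (-1.21, limma adjusted p = 0.256) and b6947_5_4 (-1.52, limma adjusted p = 0.264), did not pass.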

How the data were processed

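The members, sets and tests were chosen with earlier results of these data known. Per the labels' protocols, 16S rRNA genes were amplified in 35 cycles of PCR (10 ng of DNA from faeces), and 250 ng of labelled product was hybridised. The authors deposited linear spot intensities, written by Agilent Feature Extraction 10.5.1.1 per the file headers. Other deposited columns used are marks of 0 or 1 for spots well above background and for outlier spots. Each dye was handled as a single channel: normexp background correction (offset 50) of the mean signal, log2, and the mean over spots not marked as outliers. A probe was above background where over 0.5 of its spots were. Group and dye came from the column and the labels. For 4 A+LO samples the labels and columns give different numbers, so each is named by its array. Another 1 channel had no listed sample and was not used.

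Within-array differences of 12 arrays were fitted with limma 3.58.1 (R 4.3.3), with a mean for each oil and Benjamini-Hochberg adjustment over all probes or sets. A plus sign means higher in A+LO. On simulated differences over 1153 probes with 200 changed, this fit recovered 53.4% of those changed by 2 log2 units and 98.8% of those changed by 4. The simulated noise was independent for each probe and array, with no shift shared by the probes of an array. The real arrays held such shifts, so these rates do not describe what the fit recovers here. The number of arrays limits the precision, and nothing in the labels states how rats were housed. Exact p-values thus measure the spread between these samples, and limma p-values also rest on spread pooled over probes or sets. Single values were tested by exact sign-flip or permutation, two-sided except the one-sided pseudo-F. Named probes and sets are the 2 highest and 2 lowest past the test, probes above background in every LO or every A+LO sample, or else those with the smallest p, plus the 6 sets with most kept probes. Alternatives were other signals, scalings, filters, designs and leaving out arrays. Probe sequences are not reported here. Figures were drawn with matplotlib 3.10.9 (Python 3.11.15).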

Additional observations from a re-analysis of the deposited data

Results flagged for a closer look

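Of 42 groups of 6 or 7 values examined, 14 had a highest or lowest value far from the rest by Dixon's criterion, which chance meets in about 1 in 20 groups, and 12 of the 14 were values of the array of LO 4. LO 4 had 679 probes above background (the others 971 to 1044), a Shannon index of 5.23 and a spot SD of 1.21. Its A+LO partner had 576 probes above background (the others 782 to 930), a Shannon index of 4.12 and a spot SD of 1.13. On that array the median difference was 4.18, and the differences of b6948, b6962, b6945, b6983 and b6957 were 4.79, 2.38, 4.9, 4.01 and 3.82. The other 2 values belong to A+LO 1, in which b6995 held 2.82% (0.454% to 1.2% in the other A+LO samples) and b6957 1.66% (0.112% to 0.73%).

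Differences between the oils past their test were those of 355 probes and 38 sets in the interaction, of b7008_5_12 (3.89), b7008_5_11 (3.84), b6948 (3.34) and b6945 (3.12), and of detected probes (-94.5). The reasons were not tested.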

How the results depend on the processing

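The Shannon index was lower in A+LO in every setting, but by -0.00574 with quantile over all samples, against -0.578. Settings that change only a channel's factor cannot move it. The number of detected probes was lower in every setting run. The log2 results depended most on scaling, filter and array. Probes past the test numbered 376, 231, 659, 712, 486, 7 and 902 with the processed signal, loess and Aquantile, 75th percentile of all probes, median of all probes, median of the kept probes (mostly higher), quantile over all samples and quantile within each dye, against 11. Sets past the test numbered 28, 30, 44, 45, 45, 22 and 52 in that order, against 0. Interaction probes were 0 with the processed signal, loess, median of the kept probes and both quantile settings, against 355, and with the 75th percentile and the median of all probes 490 and 276, where they turned negative. Interaction sets in the order of the 7 settings were 0, 2, 30, 18, 0, 0 and 0, against 38, the 30 and 18 negative. With no filter on dim probes 3464 probes (3264 of them higher), 3789 interaction probes and 64 interaction sets passed. With only probes above background in all 12 samples it was 129 probes, 12 sets and 0 for both interaction counts. With the array as a random block over 25 samples 57 probes passed. With no array block it was 0 probes (38 at an unadjusted p under 0.05) and 0 interaction probes and sets. With the 6 linseed arrays alone 1 probe passed. Setting each array's median difference to 0, added after seeing the data, gave 535 probes, 18 sets, 0 interaction probes and 17 interaction sets. Together with leaving out the array of LO 4, also added, the 8 settings gave 764, 288, 591, 639, 686, 28, 908 and 609 probes.

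Leaving out each linseed array in turn gave 0 to 471 probes, 0 to 25 sets, 275 to 393 interaction probes, 29 to 40 interaction sets, -114 to -94.6 detected probes, a Shannon difference of -0.642 to -0.472, a pseudo-F of 0.876 to 1.31 and a spread of 0.18 to 0.259. For the last 4 an exact p under 0.05 was out of reach with 5 arrays. For detected probes by oil the range was -105 to -85.6. With 3 SD above the negative controls the differences were -104 and -28.3 (by oil), and with all 3 spots well above background -163 and -108. Unpaired, with A+LO 11, the exact permutation p was 0.154 for a difference of -112 detected probes and 0.0519 for one of -0.53 in the Shannon index. The pseudo-F was 2.79 (exact p = 0.0625) with the median of the kept probes. The spread was 0.06, -0.00186, -0.0125, 0.0718, -0.0588 and 0.0444 with loess, 75th percentile of all, median of all, median of kept, quantile over all and quantile within dye.

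Sign changes where the value passed the test in either setting were: b6957 to -1.4, -0.25, -1.31, -1.47 and -1.5 (processed, loess, 75th percentile of all, median of all, quantile within dye) and from -0.74 to 0.3 over the leave-one-out fits, lowest without the array of LO 4; b6955 to -1.33, -1.48 and -1.01 (75th percentile of all, median of all, quantile within dye); b6959 to 1.07 and b6983 to 0.89 (median of kept); b6948 to -0.88 (quantile within dye); the interaction of b6945 to -0.05 (75th percentile of all); and the share of b6995 to 0.35 (quantile over all). Among sign changes of values past the test in neither setting were those of b6985 to -0.15, -0.31 and -0.24 (75th percentile of all, median of all, quantile within dye), b6948 to -0.67, -0.19, -0.35 and -0.07 (processed, 75th percentile of all, median of all, quantile over all), b6998 to 0.68 and 0.63 and b6962 to 0.3 and 0.44 (median of kept, no filter), b6995 to 0.05 (quantile over all), and the shares of b6959 to 0.241 (loess) and b6983 to 0.213 (quantile over all). Others concern b6957, b6959 and b6983, at 0.02, -0.2 and -0.37 in the main setting. The causes were not tested.

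LO and A+LO shared only 2 unambiguous replicate numbers, whose deviations correlated at -0.34 and 0, so the samples share only a number. With these numbers as a replicate block 310 probes, 39 sets, 1 interaction probe and 0 interaction sets passed, and b6948 and b6957 were at -1.51 and -2.18. Probes b6973_5_4 and b6984_5_2 were then at -0.89 (limma adjusted p = 0.26) and -2.66 (limma adjusted p = 0.074), past the test no more. Signals near background limit what dim probes can show.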
